A study of Mus musculus with 15 samples.

Results

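The transcriptome of control mouse embryonic stem cells (ESCs) was described from the 5 libraries that received a non-targeting hairpin (shScr), out of 15 libraries in all. Every gene (26061) and every repeat class (1217) in the tables was taken, ranked by its mean over the 5 libraries and by the spread between them. The cells were E14 ESCs, a line of 129/Ola background, grown without feeder cells on gelatin in 15% serum and 1000 U/ml of the cytokine LIF. They were infected with a pLKO.1 lentivirus, put under puromycin 24 hours later and collected after 3 days of selection, and the same holds for the 5 libraries with a hairpin against Tet1 (shTet1) and the 5 against Tet2 (shTet2). All 3 groups therefore carry a hairpin vector and drug selection, and no uninfected library was used here. The labels number the libraries of each group but do not say whether they came from separate cultures, so p-values measure only the spread between these samples, which may be technical.

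ESCs correspond to the epiblast of the early embryo and can give rise to all of its lineages. Their identity is held by a network of transcription factors, with OCT4 (Pou5f1), SOX2 and NANOG at its centre, and LIF signals through STAT3 to keep them from differentiating. Genes of later lineages are mostly silent while several families of transposable elements remain transcribed. Ribosomal RNA was removed before library preparation instead of selecting polyadenylated RNA, so RNAs without a poly(A) tail, such as replication-dependent histone messages and 7SK, are kept.

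Values are the deposited variance-stabilised values, on a log2 scale where a difference of 1 is close to 2-fold for well covered genes and where 0 reads gives 4.25. Whole reads were recovered from them, and levels between genes are compared only as reads per kilobase of exon per 1000000 gene reads (RPKM). The shScr libraries held 18580994 to 22404933 gene reads and 7476759 to 10638114 repeat reads. Pairs of libraries correlated with r from 0.977 to 0.994 over genes, and none agreed within sampling noise. The 13 protein-coding genes of the mitochondrial genome were listed at 0 in replicates 3, 4 and 5 but took 23968 and 19901 reads per 1000000 gene reads (RPM) in replicates 1 and 2, and the same replicate numbers showed this in shTet1 and shTet2. Replicate 4 stood apart by another measure, with 59.5 RPM on olfactory and vomeronasal receptor genes against 12.6 to 20.01 in the other libraries.

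A total of 15498 genes (59.5%) had at least 1 read in each of the 5 libraries, 5724 (21.96%) had reads in some and 4839 (18.6%) were at 0 in all. A count of 0 in all 5 libraries, among 101508703 gene reads, allows up to 0.0296 RPM, which covers counting error only. Expression was spread over many genes. The 10340 genes with a mean of at least 100 normalised reads took 99.2% of the gene reads, while the 385 genes at or above 10000 took 34.4%, and the 100 highest genes took 16.2% ± 0.824 (SD, n = 5). Protein-coding genes took 98.1% ± 0.281 of the gene reads. Of 1271 annotated lincRNA genes, 508 had a read in every library and all of them together took 0.449% ± 0.0884.

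**Figure D1:**
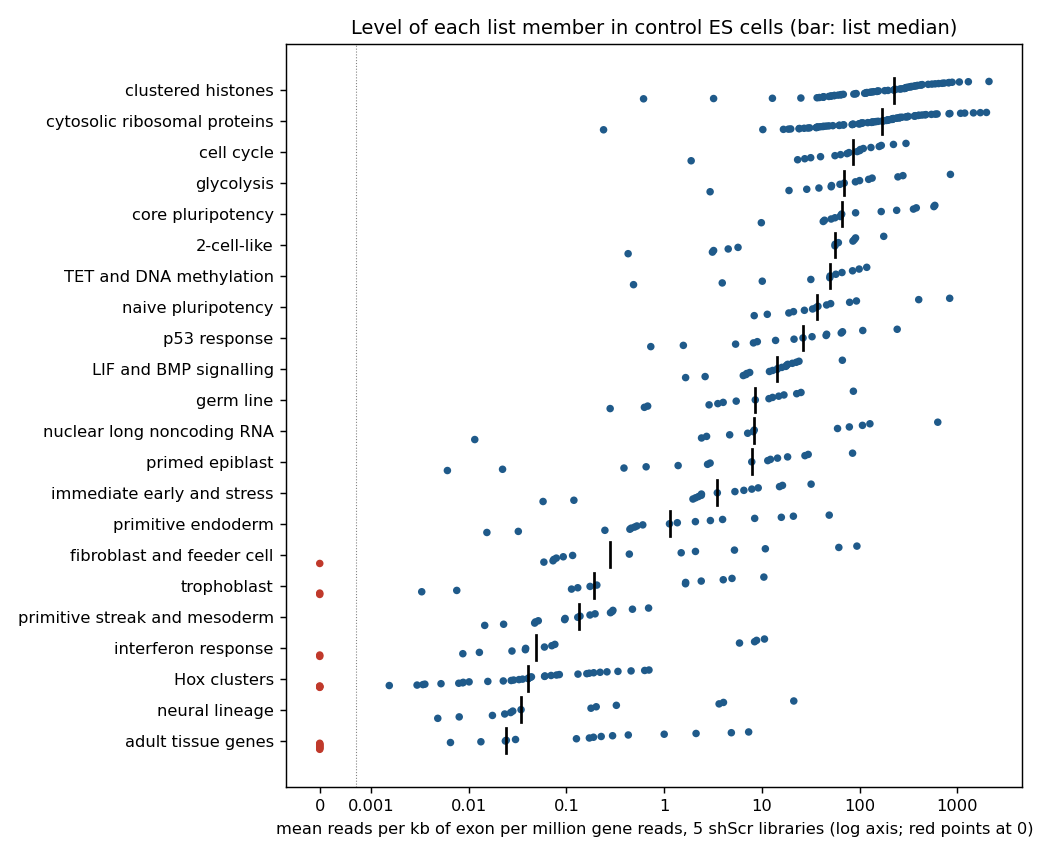
Level of each gene in the gene lists, as mean RPKM over the 5 shScr libraries, on a log axis with 1 point per gene and a bar at the list median. Core pluripotency (median 65.5), glycolysis (69.5) and cell cycle (86.1) lie far above the lists of streak, neural, Hox and adult tissue genes, whose medians are 0.134 or lower.

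The 4 markers that define the cell type were all among the highest genes per kilobase. Zfp42 (REX1), a zinc finger protein of undifferentiated ESCs, stood at 575 RPKM, within the top 0.28% of 26036 genes with an exon length. Pou5f1 was at 380, Sox2 at 239 and Nanog at 166, which is within the top 1.56%. On the log2 scale Zfp42 lay at 14.21, 14.47, 14.73, 14.52 and 14.56 in replicates 1 to 5, and its SD of 0.19 was the smallest of the 4. Pou5f1 lay at 14.21, 14.64, 14.23, 13.56 and 14.38. Replicate 4 was the lowest and replicate 2 the highest. Nanog took 12.83, 12.18, 13.12, 13.40 and 13.30, with the lowest value in replicate 2 and the highest in replicate 4, so the libraries did not rank alike for these factors. Sox2 was at 13.67 ± 0.26 (SD, n = 5).

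All 15 genes of the core pluripotency list had a read in every library, at a median of 65.5 RPKM against 0.388 over all genes. Tdgf1, a Nodal co-receptor, led the list at 588. The 14 naive pluripotency genes that were found ranged from Dppa5a, an RNA-binding protein, at 834, and Fbxo15, an F-box protein and early target of OCT4, at 402, down to 8.35, with a median of 36.6. The largest SDs in this list were 0.69 for Dppa3 and, for the transcription factors Klf5 and Tbx3, 0.67 and 0.64. Klf5 was at 10.34, 9.48, 10.13, 11.22 and 10.83, and Tbx3 at 10.52, 10.90, 10.93, 12.17 and 11.44. Both were highest in replicate 4, as were 9 of the 14 members, while replicate 4 was the lowest library for 10 of the 15 core genes. Over all 10340 genes with a mean of at least 100 normalised reads, replicate 4 was highest for 23.3% and lowest for 30.3%. Klf5, Tbx3 and the other genes named here outside the highest members of a list were picked after their values were seen.

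The components that read LIF and BMP signals were present throughout. All 18 listed genes had a read in every library, with a median of 14.4 RPKM. Etv5, an ETS factor downstream of FGF signalling, was highest at 66.6, and Socs3, the feedback inhibitor of LIF signalling, followed at 24.0. Socs3 was at 10.88, 10.88, 10.61, 9.96 and 10.71, again lowest in replicate 4. The receptor pair Lifr and Il6st differed less, with SDs of 0.20 and 0.17.

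Genes of the primed epiblast, the state that follows naive pluripotency, covered a broad range. Dnmt3b, a de novo DNA methyltransferase, was at 84.6 RPKM and Lefty2, an inhibitor of Nodal, at 29.8, while Fgf5, the usual marker of that state, reached 0.654. Of the 15, 13 had a read in every library, and the list median was 7.88. This list also had the largest spread of the pluripotency lists, with a median SD of 0.58 over the 10 members with at least 100 normalised reads against 0.28 over all such genes. Lefty1 was at 9.59, 10.33, 8.66, 8.90 and 6.69 and Pou3f1, a POU factor, at 8.31, 9.17, 7.05, 6.19 and 6.46. Replicates 1 and 2 were the highest for Pou3f1 and for Dnmt3b, which was at 13.66, 13.89, 13.17, 11.86 and 12.96.

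Genes of differentiated lineages were mostly low or silent. Over 6 lists (primitive streak and mesoderm, trophoblast, neural lineage, adult tissue genes, Hox clusters and interferon response) 103 of 120 genes found were under 1 RPKM and 17 of these were at 0 in all libraries. Over all genes, 42.4% were at 1 RPKM or more and 18.6% were at 0, so nothing is read from the count at 0. The 6 lists include interferon response, which is not a lineage, and leave out primitive endoderm (list median 1.13). Primitive streak genes reached at most 0.693 (Eomes, a T-box factor) and 0.474 (Kdr, the VEGF receptor of the blood and vessel lineages), and 8 of 16 had a read in every library. In the neural list the median was 0.0344, but Tubb3, a neuronal tubulin, was at 21.2 and Neurod1, a proneural factor, at 4.05. Neurod1 stood at 8.70, 8.69, 7.99, 7.78 and 6.86, higher in replicates 1 and 2 than in the others. In bulk RNA, few cells with much of a transcript and many cells with little of it cannot be told apart.

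The Hox clusters, which pattern the body axis and are held silent in ESCs, showed 10 of 39 genes with a read in every library, at a median of 0.0407 RPKM. Hoxd13 at 0.70 and Hoxc13 at 0.633 were the highest, and Hoxd9, Hoxb8, Hoxb6 and Hoxb5 were at 0. Of 24 adult tissue genes 9 were at 0 in all libraries, among them the pancreatic hormone genes Ins1, Ins2 and Gcg. Nphs1, which encodes the slit diaphragm protein nephrin of the kidney, was the exception at 7.32, with values of 10.36, 9.68, 9.56, 9.88 and 9.35, followed by the muscle actin Acta1 at 4.87. Receptors for smell were the largest silent family, with 976 of 1439 olfactory and vomeronasal receptor genes at 0 in all libraries and 19 with a read in each.

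Extraembryonic lineages differed from each other. The placental genes Tpbpa and Prl3d1 were at 0, Cdx2 was at 0.131 and the trophoblast list had a median of 0.19 RPKM, with the keratin gene Krt18 highest at 10.5 and Rhox6, an X-linked homeobox gene, at 4.95. Krt18 was at 7.81, 8.25, 8.08, 7.98 and 9.63, where replicate 5 stood above the rest. The primitive endoderm list had a median of 1.13. Its highest members were the matrix genes Sparc (48.8) and Lamb1 (21.0), which many cell types express, while the lineage factors Gata6 and Gata4 were at 1.13 and 0.605.

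Markers of fibroblasts, the usual feeder cells, were also checked. Vim was at 93.7 and Fn1 at 61.2 RPKM, and both are broadly expressed genes. The collagen genes Col1a1, Col1a2 and Col3a1 were each under 0.1, and Lum was at 0 in all libraries. Interferon genes were likewise near the floor, with a list median of 0.049, Ifnb1 and Isg15 at 0, and Ddx58, the RIG-I sensor of viral RNA, highest at 10.6, followed by Bst2, the restriction factor tetherin, at 8.82.

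Germ line and 2-cell-stage genes were expressed at substantial levels. All 15 germ line genes had a read in every library, at a median of 8.56 RPKM, led by Sycp3, a protein of the meiotic chromosome axis, at 86.3, and Hormad1, another axis protein, at 25.1. Sycp3 was at 10.50, 10.73, 11.49, 12.19 and 10.61, highest in replicate 4. The list of 2-cell-like genes, which mark a rare state of ESC cultures that resembles the 2-cell embryo, had a median of 56.0. Gm4340 was at 176 and Zscan4c, a telomere-linked zinc finger protein, at 90.8. Zscan4c stood at 11.96, 11.98, 12.48, 12.14 and 12.40, lowest in replicates 1 and 2. These families are uncertain gene by gene, since 7 of the 12 have over 50% of their 50-base exon stretches elsewhere in the genome.

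Ranked by the deposited value, which is not corrected for gene length, Hsp90aa1, a cytosolic HSP90 chaperone, led with 16.71, 16.93, 17.29, 16.50 and 17.16 in replicates 1 to 5. It was followed by the elongation factor Eef1a1 (16.59 ± 0.20), the nuclear RNA Malat1 (16.54 ± 0.37), the chaperones Hspa8 (16.33 ± 0.55) and Hsp90ab1 (16.28 ± 0.41), and Rif1 (16.18 ± 0.22), a factor of replication timing. Serbp1, an mRNA-binding protein of the ribosome, the ribosomal protein gene Rpl4, the unnamed gene Gm15500 and Top2a, which untangles DNA in dividing cells, completed the highest 10, all between 15.89 and 15.97. Hspa8 was lowest in replicate 4, at 15.54, and Malat1 highest there, at 17.17.

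Per kilobase the order was different. Gm15500 was at 2734 RPKM, Rpl4 at 1983 and Rpl8 at 1717. Of the 20 highest, 12 have over 50% of their 50-base exon stretches elsewhere in the genome and 10 carry no symbol of their own, so their levels are uncertain. Gm15500 has 97.6% of its stretches elsewhere, Ptma, which encodes prothymosin alpha, 90.8% and Gm10119 90.2%. The markers have 34.9% (Zfp42), 20.6% (Nanog), 17.8% (Pou5f1) and 0 (Sox2). Of the genes named above, Dppa5a has 64.6% and Hsp90aa1 56.2%, so their levels are uncertain as well. The 81 cytosolic ribosomal protein genes had a median of 170 and together took 27713 ± 3141 RPM (SD, n = 5).

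Clustered histone genes, whose messages mostly lack a poly(A) tail, were all found, with a read in every library for 67 of 67. Their median of 224 RPKM was higher than that of the ribosomal protein genes. Hist1h4d, an H4 gene, was at 2104 and the linker histone gene Hist1h1a at 1294. Their summed reads ranged from 10555 to 18683 RPM. Hist1h4d was at 14.00, 13.67, 14.07, 14.79 and 14.06, and replicate 4 was the highest library for 35 of the 65 members with at least 100 normalised reads, beside 23.3% of all genes. Of the 67 genes, 31 have over 50% of their exon stretches elsewhere.

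Genes of proliferation and energy supply were high. The 18 cell cycle genes had a median of 86.1 RPKM and a median SD of 0.20, with Top2a at 298 and Mcm3, part of the replicative helicase, at 222. Glycolysis genes had a median of 69.5 but a median SD of 0.47, or 0.31 without replicate 4. Pkm2, the pyruvate kinase gene, was at 15.45, 16.08, 15.64, 14.45 and 15.38, and Ldha, lactate dehydrogenase, at 13.51, 13.67, 13.03, 11.79 and 13.11. Replicate 4 was lowest for both, and for 11 of the 15 genes, beside 30.3% of all 10340 genes. Genes that respond to p53 were all present, with Ccng1, a cyclin-like feedback gene, at 242 and Trp53inp1, a proapoptotic p53 cofactor, at 108, while the cell cycle inhibitor Cdkn1a was at 1.57. The highest of the stress list were Gadd45a at 31.9 and Dnajb1, an HSP40 co-chaperone, at 16.2.

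Enzymes of DNA methylation were expressed unequally. Dnmt3l, the cofactor of the de novo methyltransferases, was at 118 RPKM and the maintenance enzyme Dnmt1 at 98.9. Tet2 was at 49.9 and Tet1 at 49.5, whereas Tet3 reached 0.486. Tet1 was at 14.04, 14.25, 13.68, 14.04 and 13.92 and Tet2 at 13.15, 13.24, 13.26, 13.52 and 13.45. Their SDs were 0.21 and 0.15, below the median of all genes.

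Long noncoding RNAs of the nucleus covered a wide range. Malat1 was at 630 RPKM and Snhg1, a host of small nucleolar RNAs, at 127, while Neat1, the scaffold of paraspeckles, was at 2.72. Neat1 was at 10.27, 10.36, 9.72, 11.33 and 8.73, with replicate 4 highest as for Malat1. The imprinted H19 was at 7.75, 9.48, 8.91, 8.30 and 8.60. Of 9 microRNA genes listed, 4 were at 0, including Mir10a, Mir196a-2 and Mir615, and the highest was Mir17hg, the host of the miR-17 cluster, at 26.3, followed by Mir706 at 0.323.

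Most genes varied little between control libraries. Among the 10340 genes with a mean of at least 100 normalised reads the median SD was 0.28, against about 0.05 from counting alone, and 1065 genes (10.3%) had an SD over 0.5. The same genes had a median SD of 0.25 in shTet1 and 0.26 in shTet2. The smallest SDs were those of Msl3, a chromatin-binding subunit of the MSL complex (0.02), Lcmt2, a tRNA-modifying enzyme (0.03), Ftsjd2, a cap methyltransferase (0.03), Etnk1, ethanolamine kinase (0.04), and Mcm7, part of the replicative helicase (0.04). Mcm7 was at 13.02, 13.09, 13.01, 12.99 and 13.06. Without replicate 4 the median SD was 0.23.

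**Figure D2:**
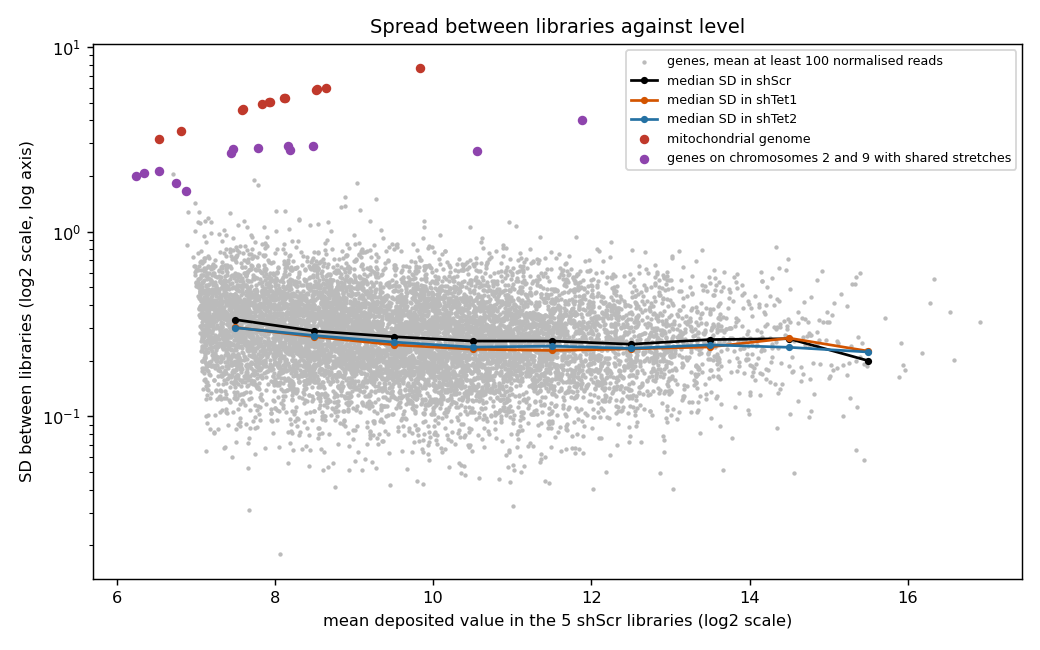
Spread of each gene with a mean of at least 100 normalised reads: SD over the 5 shScr libraries (vertical axis, log axis of log2 units) against the mean deposited value (horizontal axis, log2 scale), 1 point per gene, with lines for the median SD in each group. Most genes lie near the median SD of 0.28, the 13 mitochondrial genes reach SDs of 3.15 to 7.66, and the genes with shared stretches on chromosomes 2 and 9 form a second group of large spread.

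The 50 genes of largest spread had a median SD of 1.95 and included all 13 mitochondrial genes. Just inside the list were Mylpf and S100a13, both with an SD of 1.13, and just outside it were Ccdc107 and Patl2, both with 1.12. The mitochondrial genes gave the whole library split described above. The gene mt-Co1, which encodes a subunit of cytochrome c oxidase, was at 18.24 and 18.23 in replicates 1 and 2, above Hsp90aa1 there, and was listed at 0 reads (4.25) in the other 3. Its companions mt-Co3 (15.19 and 15.29), mt-Co2 (15.23 and 14.72) and mt-Nd1 (15.21 and 14.67) followed, and mt-Nd4l had the smallest values of the 13, 10.49 and 9.44. Since genes that every cell uses are at 0, these zeros give no level. With the mitochondrial genes left out, a choice made after seeing the data, the median SD of the 50 most variable genes was 1.28. That list ended with Lef1 (1.04) and Igf2 (1.02), and Zfp296 (1.02) and Ahnak2 (1.01) were just outside it.

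Of the 50 most variable genes without mitochondrial genes, 16 had replicate 4 as the library farthest from the others and above them, beside 1352 (13.1%) of all 10340 genes. The cation channel gene Trpm1 was at 6.61, 6.88, 7.48, 11.08 and 6.65, so that 4 libraries lay close together and replicate 4 stood far above them. Hexa, a subunit of the lysosomal enzyme hexosaminidase, was at 9.25, 9.42, 9.50, 11.92 and 9.31. Aqp3, a water and glycerol channel, was at 7.68, 7.03, 9.27, 11.74 and 9.46. Nupr1, a stress-induced chromatin protein, was at 8.89, 7.16, 8.56, 11.40 and 8.45. In Aqp3 and Nupr1 the other 4 libraries were spread over a wider range. Replicate 4 was also above the rest for the phosphatase gene Cdc14a (11.38 in replicate 4, at most 8.76 elsewhere), the proapoptotic Hrk (9.28, at most 6.86), the AP-1 family member Jdp2 (9.03, at most 6.80), the ATP-gated channel gene P2rx7 (10.24, at most 8.28), the glutathione-degrading Chac1 (9.48, at most 7.79), the calcium-binding S100a13 (9.05, at most 7.18), Patl2 (8.97, at most 6.96), the lipoprotein receptor gene Vldlr (8.95, at most 6.79) and the acetate-activating enzyme gene Acss1 (10.43, at most 8.45). Ddit3 (CHOP), a factor of the integrated stress response, was also highest in replicate 4, at 7.30, 6.52, 8.52, 9.89 and 8.38.

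Of these 16 genes, 15 also had replicate 4 as the highest library in shTet1, and 15 did in shTet2. Of the 1352 genes in which shScr replicate 4 was farthest above, 49.6% had it highest in shTet1 and 63.6% in shTet2. Of these 16, Gm16869 and Gm10719 belong to the chromosome 9 set described later. Replicate 4 of shTet1 and of shTet2 also held 53.3 and 63.4 RPM on receptor genes, and replicate 3 of shTet1 held 55.3. The role of that library's composition in the high values was not tested.

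The promoters of these genes were read from 250 bases before to 50 bases after each annotated start in mm9 (the NCBIM37 assembly), on both strands. The members were picked for being farthest above in replicate 4, so their rise together there is the rule of selection. Sequences with a motif are shown, and capitals mark the motif. A gene counted if any of its annotated starts held the motif, so genes with more starts had more windows. The E-box CACGTG was in 3 of the 13 that carry a gene symbol, beside 12.3% of all 26036 genes. The longer TCACGTGA overlapped it in Hexa (1 of 13, beside 1.45%). The Trpm1 window shown lies at an annotated start inside the gene. The letters TGATGNAAN were in 4 of 13, beside 7.38% of all genes. They were also in 1 of the 4 genes farthest above in replicate 5. Of the 7 genes with a symbol farthest above in replicate 1 or 2, they were in 1. CACGTG was in none of these other genes. None held TGATGCAAT (0.411% of all) or TGACGTCA (2.87%), and TGACTCA or TGAGTCA was in 2 of 13 (Aqp3 and P2rx7), beside 9.19%. These matches are a description of the letters in these windows.
Trpm1 chr7:71330104-71330133 (+): agtaattggaagCACGTGgctcctcttcct
Nupr1 chr7:133769192-133769221 (-): gcgagagctttcCACGTGgaaaaacacagc
Hexa chr9:59387427-59387456 (+): ttccctcccgttCACGTGaccctccgattg
Hrk chr5:118619649-118619678 (+): ccgggccggaTGATGTAACcccctccccgc
Jdp2 chr12:86940323-86940352 (+): tagccggggcTGATGCAACccgtcccgccg
Chac1 chr2:119176774-119176803 (+): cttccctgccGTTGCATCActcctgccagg
Vldlr chr19:27291299-27291328 (+): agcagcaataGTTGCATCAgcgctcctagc

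Replicate 5 was the library farthest above the others for 4 of the 50 genes, near its share of 5.83% of all genes, and nothing is read from that count. Acta2, smooth muscle actin, was at 7.11, 5.21, 6.84, 4.59 and 9.84, and Tagln, the actin-binding protein transgelin, at 8.04, 6.88, 7.74, 5.74 and 10.55. Both were highest in replicate 5 and lowest in replicate 4. Thbs1, the matrix protein thrombospondin, was at 7.91, 7.50, 7.88, 6.64 and 10.14, and Igf2, the imprinted growth factor, at 6.48, 7.40, 7.13, 6.72 and 9.08. All 4 were also highest in replicate 5 of shTet1 and of shTet2, beside 63.8% and 51.4% of the 603 genes in which shScr replicate 5 was farthest above. Of the 14 fibroblast markers 4 had at least 100 normalised reads. Acta2, Tagln and Vim (13.15) were highest in replicate 5, but Fn1, at 13.42, 13.22, 12.78, 14.12 and 13.50, was highest in replicate 4. Among the low members Postn and Col3a1 reached 6.46 and 6.76 in replicate 5 against at most 5.39 elsewhere, while Lum stayed at 0. The part of other cell types in these values was not tested. The CArG box, the element read by serum response factor, was in 2 of these 4 genes (Tagln and Igf2), beside 2.98% of all. Acta2 and Thbs1 did not hold it in this window. It was also in 1 of the 7 genes with a symbol farthest above in replicate 1 or 2 (Lef1) and in 0 of the 13 of replicate 4. These matches too describe only the letters, and a role of the element was not tested.
Tagln chr9:45744234-45744263 (-): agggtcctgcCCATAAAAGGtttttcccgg
Igf2 chr7:149847312-149847341 (-): cacagttttcCCATTTATGGagtcgccttc

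Replicate 2 was farthest below the others for 7 of the 50 genes, beside 13.8% of all genes, and farthest above for 6, beside 12.5%. Rps16, a ribosomal protein gene, was at 9.74, 6.62, 9.88, 9.995 and 10.15, the germ line tubulin gene Tuba3a at 9.57, 6.46, 9.82, 9.11 and 9.48, and Isca1, an iron-sulphur assembly factor, at 8.67, 6.52, 9.01, 8.90 and 9.11. In all 3 the other libraries lay close together and replicate 2 was far below them. Rps16 has 48.3% and Tuba3a 37.9% of its exon stretches elsewhere in the genome. Above the others, replicate 2 led for the immunity-related GTPase gene Irgm1 (8.91), Pou3f1 (9.17), Vrtn (8.60) and the lysophospholipase gene Enpp2 (8.72), with replicate 1 second for each.

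**Figure D3:**
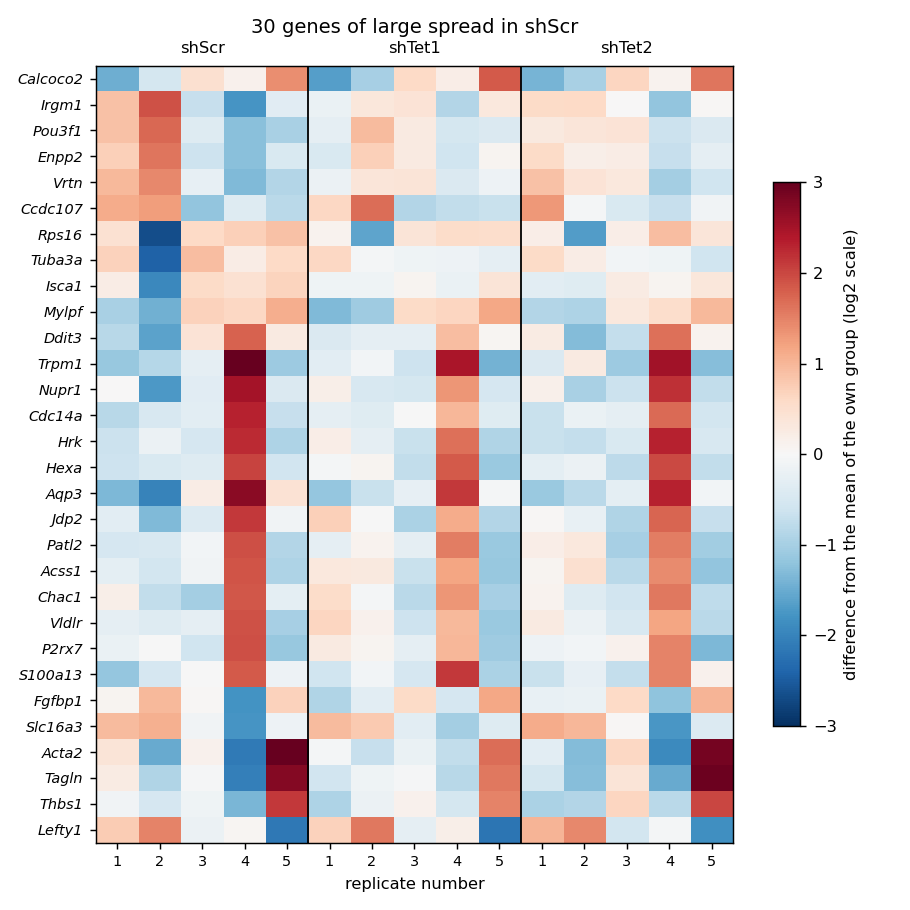
Heat map of 30 genes of large spread in shScr (rows) in all 15 libraries (columns, by group and replicate number), coloured by the difference from the mean of the gene's own group on the log2 scale. The block of genes high in replicate 4, such as Trpm1 and Hexa, and the block high in replicate 5, such as Acta2 and Tagln, recur at the same replicate numbers in shTet1 and shTet2.

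A further set was singled out after its values were seen: 13 genes without a symbol of their own, 2 on chromosome 2 and 11 within chr9:3000282-3038313, at the centromeric end of the assembled chromosome. Their summed reads were 16.3, 25.3, 2114, 4309 and 581 RPM in replicates 1 to 5. Gm10800 alone, at chr2:98506704-98507458, was at 7.51, 7.73, 15.12, 15.79 and 13.28 and averaged 1409 RPKM, among the highest 20 genes. Replicates 1 and 2 were far below the others for it. Between 21.8% and 100% of the 50-base exon stretches of the 13 genes occur elsewhere in the genome. The major satellite class GSAT_MM moved with them, taking 0.0384, 0.0648, 1.67, 5.23 and 0.601% of repeat reads. The stretches below are shown because they repeat across these genes. The first has 72 copies in mm9 and lies in exons of 11 of the 13 genes, and the second has 92 copies, 87 of them on chromosome 9.
Gm10800 chr2:98507063-98507092 (+): ctgaaaatcacggaaaatgagaaatacaca
Gm10717 chr9:3025573-3025602 (+): attccaggtcctacagtgtgcatttctcat

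The libraries that list mitochondrial reads, replicates 1 and 2, were also set against replicates 3 to 5 in nuclear genes. Replicates 1 and 2 lay apart from 3 to 5 on the first principal component, which held 55.1% of the variance. With the mitochondrial genes left out it held 46.6%, with scores of 15.2, 30.6, -7.24, -34.3 and -4.26 in replicates 1 to 5. Replicates 2 and 4 were then the farthest apart. Of the 10340 genes, replicates 1 and 2 lay above all of 3 to 5 for 15.9% and below for 14.9%. This is 1 pair among the 10 that 5 libraries form, so part of either share is met with no split at all. Within these 2 sets of libraries the median SD was 0.25, close to the 0.28 over all 5.

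The gene lists did not share this split equally. Over all 10340 genes the shares were 15.9% higher and 14.9% lower, and the counts below stand beside these. Of 10 primed epiblast genes with at least 100 normalised reads, 8 were higher in replicates 1 and 2, with a median difference of 0.80, and none was lower. Genes that respond to p53 were higher in 7 of 13, primitive endoderm genes in 4 of 8 and nuclear long noncoding RNAs in 4 of 10. Plk2, a p53 target kinase, shows the range, at 11.98, 13.02, 11.95, 11.33 and 11.32. The 2-cell-like genes went the other way, with 7 of 11 lower in replicates 1 and 2. Naive pluripotency genes were lower in 4 of 14, a small count from which nothing is read. Histone genes fell on both sides, 11 above (16.9%) and 26 below (40%) of 65, and the count above is near the share of all genes.

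The same difference was taken in the other groups. The median difference of replicates 1 and 2 from 3 to 5 over the primed epiblast list was 0.50 in shTet1 and 0.46 in shTet2, beside -0.02 over all genes in both. For the 2-cell-like list it was -0.37 in shScr and -1.29 in shTet1 but 0.24 in shTet2, and for primitive endoderm genes 0.51 in shScr, -0.07 in shTet1 and -0.64 in shTet2. In the same order of groups it was 0.56, 0.08 and 0.13 for p53 response genes and 0.55, -0.18 and 0.13 for nuclear long noncoding RNAs. Naive pluripotency genes gave -0.32, 0.04 and -0.37, and glycolysis genes 0.23, 0.41 and 0.53. Whether these differences between groups exceed the spread was not tested. The labels do not say what separates these replicate numbers, and RNA was extracted by either of 2 methods with no record of which library had which, so these cannot be told apart.

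**Figure D4:**
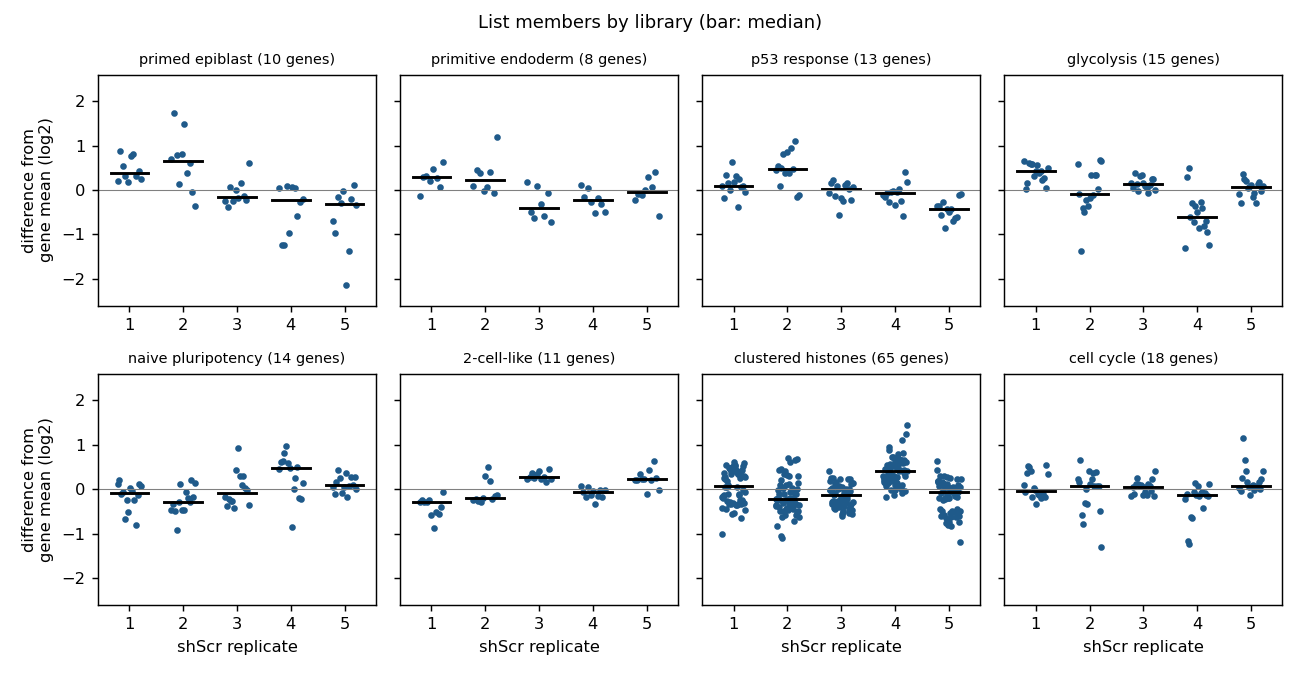
Difference of each gene from its own mean over the 5 shScr libraries (vertical axis, log2 scale) by replicate number (horizontal axis), 1 panel per gene list, with a point per gene and a bar at the list median. Primed epiblast genes are higher in replicates 1 and 2, glycolysis genes dip in replicate 4, and cell cycle genes stay close to 0.

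Repeat classes are groups of genomic repeats of 1 RepeatMasker name whose reads were pooled. Per the study's methods, a read with several equally good hits was placed at 1 of them at random. The methods do not say that copies inside genes were left out. Reads of a class may therefore include RNA of the genes that hold its copies, and that part was not tested. Of 1217 classes, 1102 had a read in every shScr library and 16 were at 0 in all. They received 43.2 ± 8.50 reads for every 100 gene reads (SD, n = 5), from 33.4 in replicate 5 to 56.1 in replicate 4, and 40.0 without replicate 4. The 10 highest classes took 41.5% ± 4.46 of the repeat reads.

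The highest class was 7SK, the RNA that holds back the elongation factor P-TEFb, at 19.23, 19.52, 19.61, 19.91 and 19.26. Young LINE1 elements followed. L1Md_A was at 19.08, 19.31, 18.86, 19.20 and 18.67 and L1Md_T at 18.96, 19.18, 18.86, 19.38 and 18.67, each about 5.6% of repeat reads, whereas L1Md_Gf was at 14.42 ± 0.31. LINE1 elements move by copying their own RNA into DNA, and the A, Tf and Gf subfamilies are those still active in mouse. The next classes were the SINEs B2_Mm1a (18.73 ± 0.38) and B2_Mm1t (18.10 ± 0.33), the endogenous retroviruses MERVL-int (18.44 ± 0.35) and MMETn-int (18.41 ± 0.17), the satellite MMSAT4 (18.07 ± 0.19), 7SLRNA, the RNA of the signal recognition particle (17.74 ± 0.27), and B3 (17.44 ± 0.31).

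By family, B2, B3 and B4 SINEs took 14.7% ± 2.55 of repeat reads, small structural RNAs 13.6% ± 0.757, young LINE1 13.6% ± 0.578, ETn and related retroviruses 9.33% ± 0.811 and B1 SINEs 8.95% ± 0.894. The retrovirus MERVL with its long terminal repeat MT2, a hallmark of the 2-cell stage, took 5.40% ± 1.21. MERVL-int was at 17.89, 18.77, 18.68, 18.46 and 18.39, lowest in replicate 1. IAP elements, which are kept silent by DNA methylation and H3K9 methylation, took 0.407% ± 0.0342, with IAPEz-int at 14.66 ± 0.29. What remained of ribosomal RNA in the repeat annotation was 1.36% ± 0.599.

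**Figure D5:**
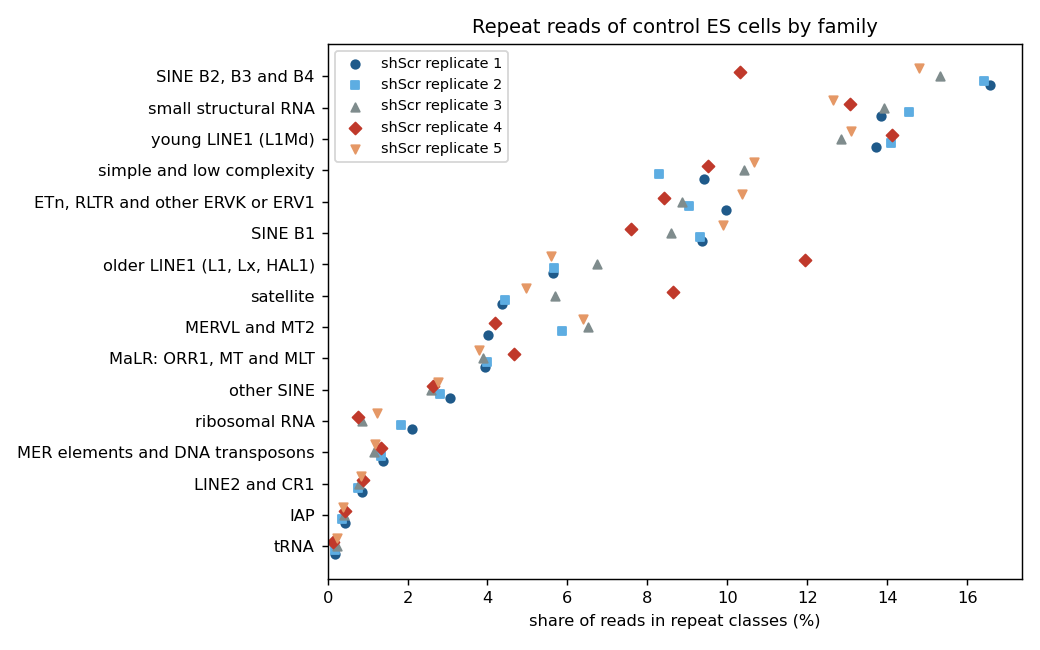
Share of repeat reads in each repeat family (horizontal axis, percent), with 1 marker per shScr library. SINEs B2 to B4, small structural RNAs and young LINE1 lead with 13.6 to 14.7% each, and older LINE1 shows 1 library, replicate 4, at 11.9% against 5.60 to 6.74% in the others.

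The spread of repeat classes depended on the scaling. The median SD of the 819 classes with at least 100 normalised reads was 0.45 on the deposited values, against 0.28 for genes, and 328 (40.0%) had an SD over 0.5. With each library centred on a median, the SDs were 0.26 for repeat classes and 0.29 for genes. That median was taken over the 819 classes for repeats, but over all 26061 genes for genes, silent ones included. The centred SDs are therefore not set against each other. Replicate 4 was the highest library for 659 of the 819 (80.5%) and replicate 5 the lowest for 610. Without replicate 4 the median SD was 0.29 for repeat classes and 0.23 for genes. Older LINE1 elements took 11.9% of repeat reads in replicate 4 and 5.60 to 6.74% in the others, and L1Md_F2 was at 16.57, 16.85, 16.91, 18.30 and 16.30. In the same library gene reads on receptor genes, which are otherwise silent, were highest (59.5 RPM). The part of that library's composition in these reads was not tested.

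Satellites and telomeric repeats had the largest SDs. SYNREP_MM was at 5.65, 6.41, 11.64, 13.74 and 8.93 (SD 3.43) and GSAT_MM, the major satellite of the pericentromere, at 11.76, 12.71, 17.21, 19.32 and 15.46 (SD 3.13). For both, replicates 1 and 2 were lowest and replicate 4 highest, and without replicate 4 the SDs were 2.71 and 2.50. The telomeric repeat (TTAGGG)n was at 7.74, 7.87, 9.02, 11.45 and 8.16 (SD 1.54, or 0.58 without replicate 4), and (CCCTAA)n, the other strand of it, had an SD of 1.48. The spliceosomal RNA U4 went the other way, at 10.87, 10.89, 8.26, 8.997 and 7.95. The smallest SDs were those of the low complexity and simple repeats G-rich (0.04), (CAG)n (0.07) and (CTG)n (0.09). Replicates 1 and 2 were apart from 3 to 5, without overlap, in 11.0% of the 819 classes, against 30.8% of genes. With no difference between the libraries, each of the 10 pairs that 5 libraries form is equally likely to be highest, and likewise lowest. The 11.0% counts both directions and is not above what this gives. No split is read from it for repeat classes.

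The level of the control transcriptome was last set against the knockdown libraries, which share the shScr libraries as controls. The targeted genes came first. Tet1 was lower in shTet1, with a change of -1.84 (SE 0.19; adjusted p = 0.000228, limma fit adjusted by Benjamini-Hochberg), and Tet2 was lower in shTet2, by -1.90 (SE 0.13, limma adjusted p = 3.67e-07). The 4 markers gave no difference past the threshold. Pou5f1 was at 13.84, 14.00 and 14.49 (lowest, median and highest) in shTet1 and at 13.59, 13.91 and 14.11 in shTet2, which overlap the control values. Over 8 exact two-sided permutation tests (5 against 5, smallest possible p 0.00794) the smallest adjusted p was 0.444, which does not show that the levels are equal.

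Same-numbered libraries of shScr and shTet1 deviated together in all 5 pairs (r from 0.335 to 0.749), so this comparison is also given with the replicate number as a block, while for shTet2 the pair numbered 3 did not (r -0.157). Over the whole table of 19490 genes, limma called 14 (0.0718%) in shTet1, 9 higher and 5 lower, and 76 (0.39%) in shTet2, 43 higher and 33 lower. With each library centred on its median the splits were 17 and 3 in shTet1 and 10 and 58 in shTet2. That median was taken over all genes, silent ones included. Centring moved the median change of the genes tested in shTet2 from 0.04 to -0.10, so the calls after it depend on this choice. With the replicate block 935 genes (4.8%) were called in shTet1, 495 higher and 440 lower. A block on the shScr and shTet1 libraries alone, added after the data were seen, called 569. Without the block, of the listed genes, the calls beside the targets were all in shTet2 and all higher. Dppa3 (STELLA), which protects maternal DNA from demethylation in the zygote, was higher by 1.41 (limma adjusted p = 0.0372), the piRNA factor Piwil2 by 0.72 (limma adjusted p = 0.0372) and Tdpoz3, a 2-cell-like gene, by 1.32 (limma adjusted p = 0.0485). Hba-a1, a globin gene at 0 in every shScr library, also passed (limma adjusted p = 0.0272). It entered the fit only through knockdown libraries and has no spread in the controls. Its p-value is therefore not read as a difference, and its fold is not given. The calls of Dppa3, Piwil2 and Tdpoz3 were lost with each library centred on its median (limma adjusted p from 0.0708 for Dppa3 to 0.0975 for Piwil2). They were also lost without shScr replicate 1 (0.0822 to 0.128) and without replicate 2 (0.0615 to 0.0955). Of these genes only Dppa3 passed without replicate 3, at 0.0253, and only Piwil2 without replicate 4, at 0.0487. Without replicate 5 none did (0.0528 to 0.0612). With the replicate block, which called 840 genes (4.31%) in shTet2, each of them passed, at 0.00234 to 0.00405. Tet1 and Tet2 passed in their own knockdown in each of these fits. Among the 12 genes of the 2-cell-like list none passed in shTet1 without the block and 1 did in shTet2, with median changes of -1.15 and 0.97 beside 0.01 and 0.04 over all genes tested. With the replicate block 11 of the 12 were lower in shTet1, among them Zscan4c by -1.28 (limma adjusted p = 0.0195, and 0.0987 without the block) and Gm4340 by -1.25 (0.0246, and 0.133 without it). In the same blocked fit 5 of 15 p53 response genes were lower and none higher, including Ccng1 by -0.96 (limma adjusted p = 0.00341) and Plk2 by -0.99 (0.00711), 3 of 14 primed epiblast genes were higher, including Lefty2 by 0.99 (0.00931), and 3 of 15 germ line genes were lower. Dppa3 was higher in shTet1 as well, by 1.07 (limma adjusted p = 0.0164 with the block and 0.126 without). Whether the 2 knockdowns differed from each other in these genes was not tested.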

How the data were processed

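Total RNA depleted of ribosomal RNA from 15 libraries was used (shScr, shTet1 and shTet2, 5 each). Per the submitters' processing notes and the study's methods, reads were trimmed with Trim Galore 0.3.3 and aligned to mm9 with TopHat2 2.0.9, reads were counted per gene and per RepeatMasker repeat in SeqMonk, and repeats of a class were pooled. The authors deposited DESeq2 variance-stabilised values on a log2 scale, and no counts were used here. Whether counting used strand is not given in the sources used here, so overlapping and antisense genes cannot be told apart.

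Whole reads were recovered by inverting the transformation, and 100% of values came within 0.02 of a whole read. The largest gap was 0.00296 for genes and 0.0137 for repeats. These reads gave depths of 18580994 to 22404933 gene reads, levels per kilobase of exon (gene models of the NCBIM37 annotation, matched for 26036 genes) and counting limits. Intervals and limits cover counting error only. Spread is the SD of deposited values over the 5 shScr libraries, for features with a mean of at least 100 normalised reads. A gene was detected if it had a read in every library.

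Group differences were fitted with limma 3.58.1 (R 4.3.3) on all genes and groups with Benjamini-Hochberg adjustment, in place of the count model of the study, since the files hold log2 values. The 4 markers were tested with exact permutation tests. Other work used Python 3.11.15, numpy 2.4.6, pandas 2.3.3 and matplotlib 3.10.9. The scripts were tested on simulated data. The genes named are the markers, the 10 highest values, the 20 highest per kilobase, the 15 largest and 5 smallest SDs, the highest 2 and up to 3 silent members of each list, and members called by limma. The members and lists were chosen with earlier results of these data known. Of 301 gene names in 19 hand-written lists 286 were found. Among the gene names, 25 had been changed to dates and were not named.

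Replicate numbers were checked as pairs: same-numbered libraries correlated in their deviations from the group means with r from 0.335 to 0.749 between shScr and shTet1, and for that comparison, treated as paired, the fit with a replicate block is given beside the other. Between shScr and shTet2 r ran from -0.157 to 0.842, and that comparison was treated as unpaired. The labels do not say what a number stands for. Alternatives were other minimum reads, centring, leaving out each replicate, within-set SDs, only the groups compared and a replicate block.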

Additional observations from a re-analysis of the deposited data

Results flagged for a closer look

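Of 160 genes, repeat classes and library measures examined, 14 had 1 shScr library outside the 95% limit of Dixon's test for 5 samples, where chance alone puts about 1 in 20 groups outside it. Most of these genes were examined because of their large SD over the same 5 libraries, so that rate cannot be set against this count. Replicate 4 was the outlying library for 8 of the 14 and replicate 2 for 4. In replicate 4 the values were 17.17 for Malat1, 11.08 for Trpm1, 11.38 for Cdc14a, 9.28 for Hrk, 11.92 for Hexa, 8.97 for Patl2 and 8.95 for Vldlr, all above the other libraries, and 59.49 reads per 1000000 gene reads on olfactory and vomeronasal receptor genes. In replicate 2 they were 13.97 for Gm10925, 6.62 for Rps16, 6.46 for Tuba3a and 6.52 for Isca1, all below the others. Krt18 was at 9.63 in replicate 5, above the others, and Hoxd13 at 5.46 in replicate 1, below them. The causes were not tested.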

How the results depend on the processing

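The share of the 100 highest genes and the reads in repeats stayed within the replicate spread. The number of genes detected went from 15498 to between 15559 and 16076 when a library was left out. It cannot fall when fewer libraries must hold a read, and it has no replicate spread to be set against. The median gene SD ranged from 0.234 to 0.287 with 1 library left out, and was lowest without replicate 4. Genes with an SD over 0.5 numbered 808 to 1412 with a library left out and 347 at a mean of at least 1000 reads. Of the 50 most variable genes 35 to 47 remained with a library left out, and 28 when the SD was taken within replicates 1 and 2 and within 3 to 5. The median repeat SD was 0.284 to 0.504 with a library left out and 0.257 after centring. Genes gave 0.289 after centring on a median over all genes, which is another scaling than that of the repeat classes.

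Limma's counts were the least stable. In shTet1, 1 to 19 genes were called with a shScr library left out (1 without replicate 2), and in shTet2, 14 to 58 (14 without replicate 1, 21 without replicate 2, 28 without replicate 3 and 20 without replicate 5). Leaving out number 4 in every group, an alternative chosen after the data were seen, gave 1 and 21 calls. With only the groups compared, shTet1 had 3. Centring changed the split of calls in shTet2 from 43 higher and 33 lower to 10 and 58, and moved the median gene change from 0.04 to -0.10. With the replicate number as a block, 935 and 840 genes were called, and 569 in shTet1 with its 2 groups alone. Blocking changed no call of the 4 markers, Tet1 or Tet2, while 5 of the 12 2-cell-like genes passed in shTet2. In 9 of 10 shScr pairs the library correlated best with its own number, a hint from the data and not from the design. The cause was not tested. With a minimum mean of 10 reads 13 mitochondrial genes and 9 receptor genes counted as detected, instead of 0 and 19. Depth limits what can be said of genes under 0.0296 reads per 1000000.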

Other observations

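Small nuclear RNAs other than U4 also differed between control libraries. U6, the catalytic RNA of the spliceosome, was at 13.31, 13.71, 11.89, 12.52 and 11.61, highest in replicates 1 and 2. U2 was at 17.98, 17.98, 15.66, 17.61 and 15.46, so replicates 3 and 5 were the low ones. U1 was at 16.22, 17.32, 16.83, 16.84 and 16.03, and did not follow the same order. Ribosomal RNA of the large subunit (LSU-rRNA_Hsa) was at 16.52, 16.77, 15.02, 15.23 and 14.83, with no overlap between replicates 1 and 2 and the rest. Of the repeat classes 11.0% had this pattern in either direction, a share from which no split is read. These classes were picked after their values were seen.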
